A study of Homo sapiens with 5 samples.

Results

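The TEAD4 peaks at the SMAD genes and at the SKI corepressor genes were examined in LX-2, a human hepatic stellate cell line in a myofibroblast-like state. The 10 genes were SMAD1, SMAD2, SMAD3, SMAD4, SMAD5, SMAD6, SMAD7, SMAD9, SKI and SKIL, out of 20007 protein-coding genes of the GENCODE 44 annotation. A peak was given to a gene when its summit lay in the gene body or within 50 kb of any transcription start site (TSS) of the gene. This rule took 52 of the 21113 peaks, and no peak fell to more than 1 of the genes.

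The study asked what role protein O-GlcNAcylation, a modification by a sugar, has in myofibroblasts. Mapping the regions that TEAD4 occupies in LX-2 cells was 1 of its assays. TEAD4 ChIP-seq was performed on chromatin from 3 cultures of LX-2 cells that all had received the solvent DMSO, and 2 input chromatin samples were sequenced with them. The authors built a single list of peaks from replicates 1 and 3 and left out replicate 2, whose peaks did not rank concordantly with the others. The list holds 1 signal value per peak and no value per replicate, so the spread between cultures could not be measured, no difference was tested, and the depth per sample is unknown. All cells were of 1 line under 1 condition, and the list measures occupancy by TEAD4, not expression of the genes.

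SMAD proteins carry signals of the TGF-beta family from the cell surface to the nucleus. Receptor-regulated SMADs are phosphorylated by activated receptors, SMAD2 and SMAD3 after TGF-beta or activin and SMAD1, SMAD5 and SMAD9 after BMPs, and they then enter the nucleus with the common partner SMAD4. The inhibitory SMADs, SMAD6 and SMAD7, act against this signal at the receptors and in the nucleus, and SKI and SKIL (also called SnoN) are corepressors that bind nuclear SMADs. In hepatic stellate cells TGF-beta signalling is a main driver of matrix production. TEAD4 binds DNA through the motif ACATTCC and works with the coactivators YAP1 and TAZ.

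Of the 10 genes, 9 had at least 1 TEAD4 peak (90%), against 56.2% of all coding genes. In 7 of the 10 genes (70%) a summit was 2.5 kb or less from a TSS, against 16.7% of all coding genes. At SMAD1, SMAD2 and SMAD7 that TSS was not the start of the canonical transcript. From the canonical start the nearest summit was 64188 bp away at SMAD1, 36559 bp at SMAD2 and 4294 bp at SMAD7. The members had a median of 9 annotated TSSs and a searched interval of 145.2 kb at the median, against 5 TSSs and 112.5 kb for all coding genes. Among the 5190 coding genes with at least 10 TSSs, 68.2% had a peak and 27.7% had a peak within 2.5 kb of a TSS. SMAD5 alone had no peak.

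The peaks were unevenly spread over the family. SMAD3 had 21 of the 52 peaks (40.4%), followed by SMAD7 with 9, SMAD6 with 7, SKI with 6, SMAD2 and SMAD4 with 3 each, and SMAD1, SMAD9 and SKIL with 1 each. The median was 3 peaks per member, and the median over all coding genes was 1. Per 100 kb of searched sequence the median density was 1.88 peaks for the members and 0.667 for the coding genes, and 8 of the 10 members were above that genome-wide median. By density SMAD3 was again first, with 9.42, followed by SMAD7 with 7.45, SMAD6 with 5.36, SKI with 3.40, SMAD4 with 2.02 and SMAD2 with 1.74.

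**Figure D1:**
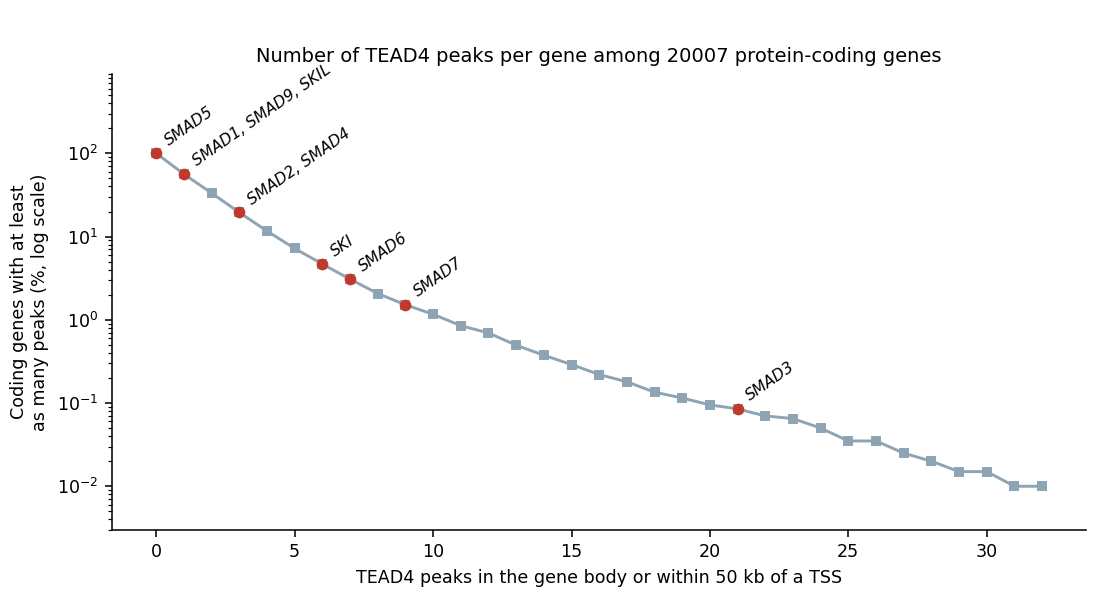
Share of the 20007 coding genes (%, log scale) that had at least the number of TEAD4 peaks on the x axis, with the SMAD and SKI genes as red points. SMAD3, with 21 peaks, sits far out on the curve, where 0.0850% of coding genes had as many or more, and SMAD7, SMAD6 and SKI sit between 1.51% and 4.67%.

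The sequences below come from the peaks that carry the main positions described in the following paragraphs. They are centred on the summit, except that of SMAD7, which is centred on the AP-1 motif of its peak and ends before the summit. Those of SMAD3 upstream of the gene, SMAD2 and SMAD4 were taken because they belong to the strongest peak or the peak nearest to a TSS of the gene and hold a TEAD motif. The others were chosen after their values were seen, for the strongest peak inside SMAD3, the only peak with both a TEAD and an AP-1 motif (SMAD6) and the strongest peak of SMAD7. All are on the plus strand of hg38, written 5′ to 3′, and capitals mark the TEAD motif (ACATTCC, or GGAATGT on the other strand) or the AP-1 motif (TGACTCA).
SMAD3, peak upstream of the gene, chr15:67044494-67044554: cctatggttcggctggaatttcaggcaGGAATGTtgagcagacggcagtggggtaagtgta
SMAD3, peak in intron 1, chr15:67080708-67080768: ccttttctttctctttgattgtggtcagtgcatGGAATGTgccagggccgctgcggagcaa
SMAD2, peak upstream of the gene, chr18:47968203-47968263: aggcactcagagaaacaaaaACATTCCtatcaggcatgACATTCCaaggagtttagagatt
SMAD4, peak in intron 1, chr18:51030917-51030977: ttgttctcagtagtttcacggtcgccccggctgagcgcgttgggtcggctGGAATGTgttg
SMAD6, peak in intron 3, chr15:66750316-66750416: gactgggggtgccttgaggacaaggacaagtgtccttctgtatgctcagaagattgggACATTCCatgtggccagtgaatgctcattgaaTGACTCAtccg
SMAD7, peak upstream of the gene, chr18:48998265-48998325: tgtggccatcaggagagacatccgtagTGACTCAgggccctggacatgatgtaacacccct

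SMAD3, a receptor-regulated SMAD that binds DNA directly and mediates much of the fibrogenic response to TGF-beta, lies on the plus strand at chr15:67063763-67195173. Its 21 peaks amounted to 9.42 per 100 kb, and it ranked 15th among the coding genes by number of peaks and 18th by density. Only 17 coding genes, SMAD3 included, had 21 peaks or more. Signal values ran from 10.9 to 604.6 with a median of 76.6, and 13 of the 21 were above the median of the whole list, which was 68.1. The 21 summits formed 17 separate regions once overlapping peaks were merged. The ranks count each summit and were not recomputed for merged regions. The weakest peak, of 10.9, had a q-value above 0.05 in the authors' list, as had 3.19% of all peaks.

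The strongest peak of the whole family lay 19.2 kb upstream of SMAD3, at chr15:67044298-67044737, inside the lncRNA gene ENSG00000259347. Its signal value was 604.6, which ranked 62nd among the 21113 peaks. The TEAD motif was centred on its summit, at an offset of 0 bp. In the printed sequence CAGAC, a short element that SMAD proteins bind, stands 4 bases from the TEAD motif. So short a sequence is frequent, and 34.6% of all peaks had it within 100 bp of the summit.

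The SMAD3 peaks fell into 7 runs along the locus, where a gap of over 10 kb between summits began a new run. The first run held 2 peaks, 39.0 and 37.8 kb upstream, with signal values of 41.6 and 68.4. The second run held 4 peaks between 19.2 and 13.8 kb upstream, among them the strongest peak and another of 197.9 with a TEAD motif 18 bp from its summit. The other 15 peaks were inside the gene, 13 in intron 1 and 2 in intron 5 of the canonical transcript.

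In intron 1 the strongest peak, at 17.0 kb from the 5′ end of the gene, had a signal value of 288.1 and a TEAD motif 6 bp from the summit. A run of 5 peaks followed between 41.8 and 45.8 kb, with signal values from 16.0 to 188.7. The peaks at 62.2 and 64.4 kb were weaker, with signal values of 36.4 and 65.2. The summit of the latter was 83 bp from an internal TSS of SMAD3, the closest approach of any SMAD3 peak to a TSS. The last run in intron 1 held 3 peaks between 81.1 and 86.6 kb, with signal values from 76.6 to 185.7.

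No SMAD3 peak lay within 2.5 kb of the 5′ end of the gene itself. The first peak inside the gene was 3.43 kb from that end, with a signal value of 34.3. That peak was 1587 bp from the TSS of the canonical transcript. It was 1 of 6 SMAD3 peaks within 2.5 kb of any TSS, whose signal values ran from 10.9 to 112.8. Of the 5 SMAD3 promoters recorded by RefSeq, 1 overlapped a peak, at chr15:67125492-67125791 with a signal value of 36.4. Among the other members with a recorded RefSeq promoter, only at SMAD7 did such a promoter overlap a peak.

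SMAD2, the other receptor-regulated SMAD of the TGF-beta and activin branch, lies on the minus strand at chr18:47808957-47931146. It had 3 peaks, a number reached by 19.5% of coding genes. The strongest, with a signal value of 161.1, lay 37.1 kb upstream, and the peaks in intron 2 had signal values of 84.1 and 66.7. The peak nearest to a TSS, that of 84.1, was 1625 bp from an alternative start.

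The upstream SMAD2 peak was the only one of the 52 with more than 1 TEAD motif within 100 bp of the summit. As the printed sequence shows, both copies were on the plus strand, with starts 18 bp apart and 11 bases between them, at offsets of −7 and 11 bp from the summit. A peak with 2 or more TEAD motifs made up 1.92% of the members' peaks and 1.81% of all peaks. The weakest SMAD2 peak also held a TEAD motif, 18 bp from its summit.

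**Figure D2:**
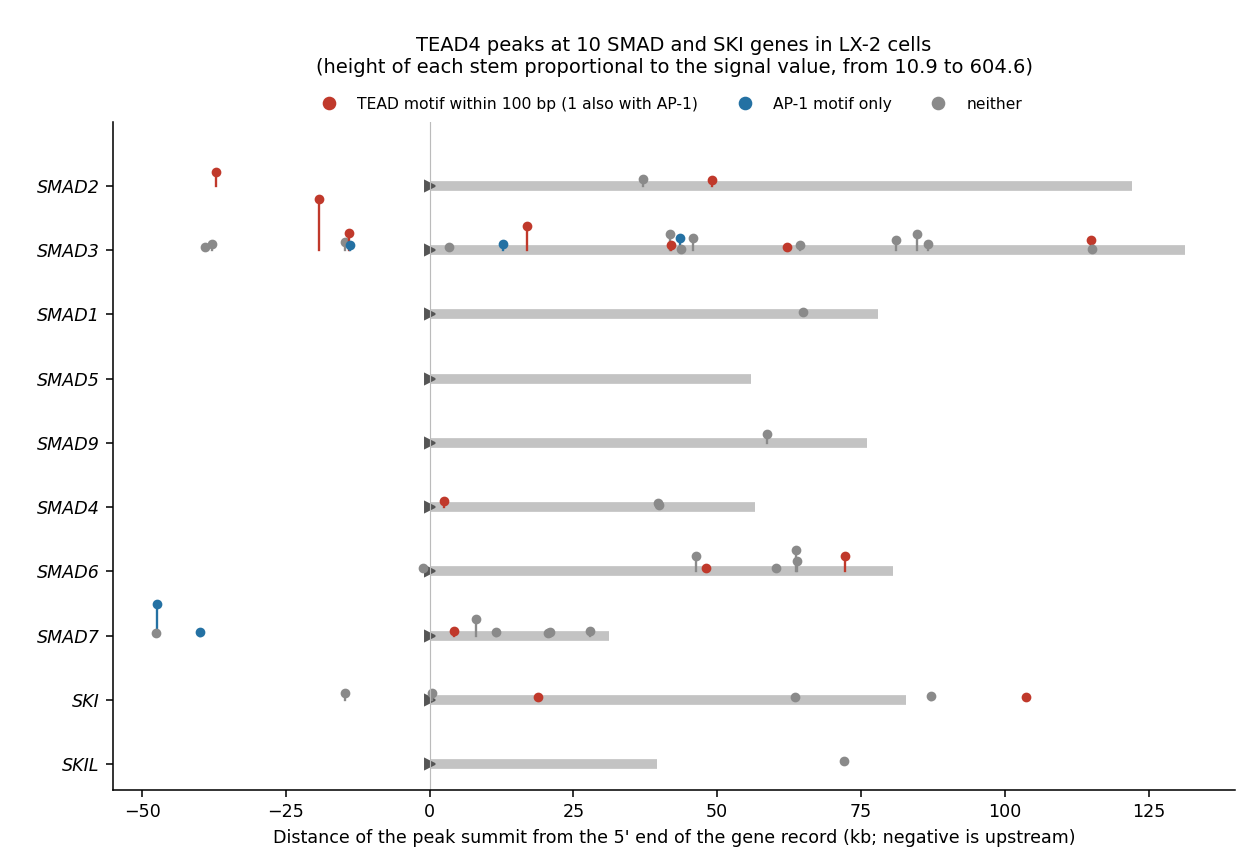
Position of the 52 TEAD4 summits relative to the 5′ end of each gene record (kb, negative values upstream), with the gene body as a grey bar pointing 5′ to 3′ and stem height proportional to the signal value. Peaks line the SMAD3 locus from 39.0 kb upstream to 115.2 kb downstream of its 5′ end, while SMAD1, SMAD9 and SKIL have 1 stem each and SMAD5 none.

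Among the BMP-activated SMADs, SMAD1 and SMAD9 had 1 peak each, the median of all coding genes, and SMAD5 had none. Their densities of 0.605 and 0.709 per 100 kb stood on either side of the genome-wide median of 0.667. SMAD2 and SMAD3 together had 24 peaks, but 21 of these were at SMAD3. The SMAD1 peak had a low signal value of 32.6, under the lower quartile of the list, 46.1. It lay in intron 4, 36 bp from an internal TSS that its interval covered, at chr4:145545819-145546262.

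The SMAD9 peak had a signal value of 106.9, above the list median, and lay in intron 5, 17523 bp from the nearest TSS of the gene. Neither the SMAD1 nor the SMAD9 peak held a TEAD or AP-1 motif within 100 bp of the summit. For SMAD5, at chr5:136132845-136188747, the nearest summit was 74292 bp from a TSS, outside the distance used, with a signal value of 109.3. TEAD4 binding at SMAD5 that the list did not retain cannot be told apart from its absence.

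SMAD4, the partner that all receptor-regulated SMADs share, lies on the plus strand at chr18:51028528-51085045 and had 3 peaks, all inside the gene. The strongest, with a signal value of 71.3, was in intron 1, 350 bp from a TSS, and held a TEAD motif 23 bp from its summit. The others, of 52.9 and 21.2, overlapped each other in intron 10, 1435 and 1635 bp from an internal start. All 3 SMAD4 peaks were thus close to starts, and none reached the upper quartile of the list, 113.6.

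The inhibitory SMADs had 16 peaks in all. SMAD6, the inhibitor that acts mainly on BMP signals, lies on the plus strand at chr15:66702236-66782849 and had 7, a number reached by 3.07% of coding genes. In intron 3 there were 6 of them, between 46.3 and 72.3 kb from the 5′ end, with signal values of 39.8, 44.9, 117.1, 183.5, 184.4 and 248.5. The seventh was 1166 bp upstream of the 5′ end, and its signal value of 34.2 was the lowest of the 7.

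A TEAD motif was found at the SMAD6 peaks of 183.5 and 39.8, at 9 and 11 bp from their summits. The weaker of them also held an AP-1 motif 43 bp from the summit, the only peak of the family with both motifs, and its sequence is printed in full above. The strongest SMAD6 peak held neither.

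SMAD7, the inhibitor that TGF-beta itself induces, lies on the minus strand at chr18:48919853-48950965 and had 9 peaks around a short gene of 31.1 kb. Its density of 7.45 peaks per 100 kb ranked 58th among coding genes. In the gene body there were 6 peaks, with signal values from 26.0 to 197.4. The strongest of these lay in intron 2, 22 bp from an alternative TSS whose RefSeq promoter, chr18:48942758-48943057, it overlapped, and it held no TEAD or AP-1 motif within 100 bp of the summit.

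The strongest SMAD7 peak lay far from the gene, 47.4 kb upstream, with a signal value of 377.7 that ranked 374th in the list. It held an AP-1 motif 60 bp from the summit and no TEAD motif. A weaker summit of 34.1 overlapped it, and a peak of 39.4 at 39.9 kb upstream held an AP-1 motif 9 bp from its summit. Without the 3 upstream peaks, SMAD7 kept 6 peaks with a median signal value of 51.3.

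SKI, a corepressor that keeps SMAD targets silent, lies on the plus strand at chr1:2227388-2310213 and had 6 peaks, a number reached by 4.67% of coding genes. Its signal values were 79.0, 84.7, 38.6, 37.2, 45.6 and 30.9 in order along the chromosome. The strongest was 448 bp from a TSS of SKI, while the peak of 79.0 was 25 bp from the TSS of the neighbouring gene FAAP20. TEAD motifs stood at the peaks of 38.6 and 30.9, the latter downstream of SKI within MORN1.

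SKIL, the related corepressor, lies at chr3:170357342-170396835 and had no peak in its body. The single peak given to it, with a signal value of 32.4, was 48023 bp from its nearest TSS, within CLDN11 and closer to the TSS of that gene. Among the member peaks outside a gene body, this was the closest to the distance limit. The upstream SMAD7 peaks followed at 47593 and 47390 bp, with signal values of 34.1 and 377.7. Peaks of SMAD6 that lay 50707 to 62830 bp from its nearest TSS were taken through the gene body. The nearest peaks that the rule left out were at 57214 bp from SMAD6 and 66380 bp from SMAD3, with signal values of 52.1 and 210.2.

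**Figure D3:**
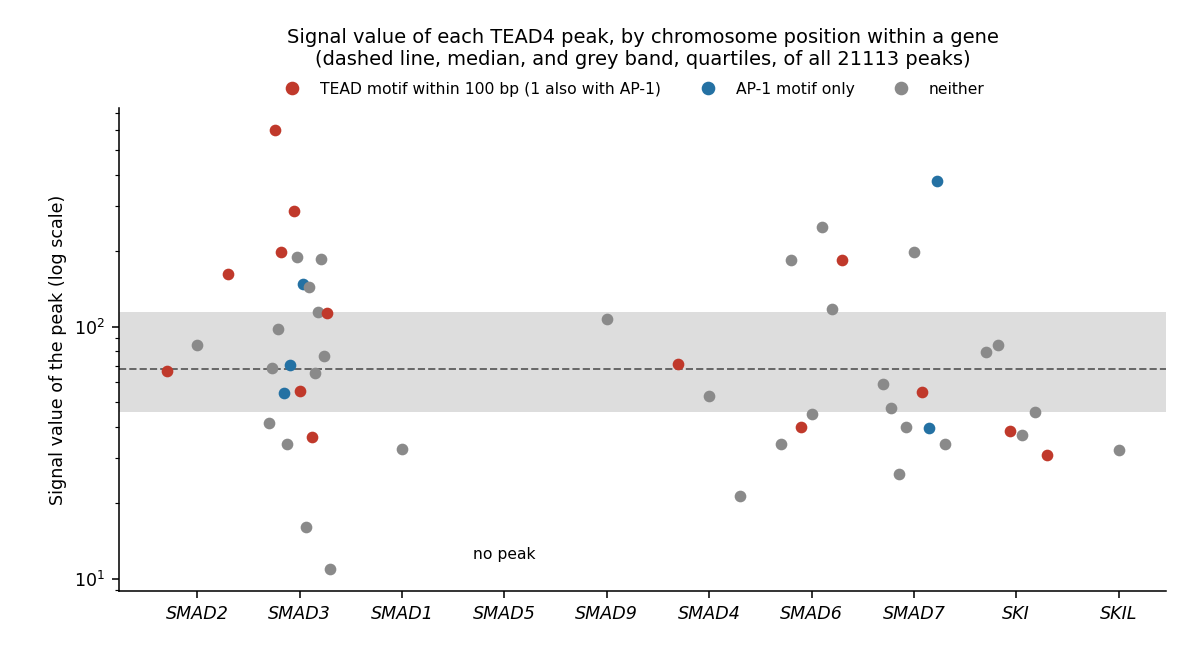
Signal value (log scale) of each of the 52 peaks by gene, ordered by chromosome position, with the median and quartiles of all 21113 peaks as a dashed line and grey band. The highest points are at SMAD3 (604.6) and SMAD7 (377.7), and the peaks of SMAD1 and SKIL lie under the grey band.

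Signal at the members' peaks was close to that of the list as a whole. Their median was 66.0 (quartiles 39.2 and 123.8), against 68.1 for all peaks (quartiles 46.1 and 113.6), and 25 of the 52 were above the list median. Under the lower quartile of the list there were 19 of the 52 (36.5%, Wilson 95% interval 24.8 to 50.1%), and in the top 1000 there were 3, namely 2 at SMAD3 and 1 at SMAD7. Intervals here and below cover counting error only, and neighbouring peaks are not independent.

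Peaks close to a TSS had lower signal values at the median than those farther away. The 18 peaks within 2.5 kb of a member TSS had a median signal value of 50.2, and the 34 others had a median of 77.8. This difference was not tested, since peaks of a single list are no replicates. Peaks near any coding or lncRNA TSS made up 42.3% of the members' peaks (29.9 to 55.8%) and 24.4% of all peaks. The rule that chose the members' peaks favours such positions, since it required a gene body or a TSS within 50 kb, so nothing is read from this share.

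In introns of the canonical transcript there were 36 of the 52 peaks, 13 lay upstream of that transcript and 3 downstream. The rule takes any summit in the gene body and so favours introns. The intronic share of all peaks was not computed, and nothing is read from these counts. The SMAD1 peak and the SMAD3 peak of 36.4, counted as intronic, also lay in an exon of another transcript of the gene. The member's own TSS was the nearest coding TSS for 50 of the 52, the exceptions being the SKI peak at FAAP20 and the SKIL peak at CLDN11. With lncRNA starts included, the TSS of another gene was nearer for 24 of the 52, among them the strongest peaks of SMAD3, SMAD6 and SMAD7. Those 24 had a median signal value of 77.8, and the 28 others had a median of 55.3.

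Signal values differed with the width of the peak interval. A width of 444 bp with the summit in the centre was recorded for 30 of the 52 peaks (57.7%) and for 61.8% of all peaks. The members' peaks of that width had a median signal value of 39.9 and the others 154.3. In the whole list the medians were 51.0 and 132.8. These differences were not tested. Overlapping summits were also frequent, with 16 of the 52 (30.8%) sharing a merged region with another peak, against 15.9% of all peaks, so that the 52 peaks stood for 44 regions.

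A TEAD motif lay 100 bp or less from the summit at 14 of the 52 peaks (26.9%, 16.8 to 40.3%) and in 23.0% of all peaks. It was 25 bp or less from the summit in 11 of the 14 (78.6%), with a median of 14.5 bp. For all peaks with the motif, 69.1% were that close, with a median of 16 bp. SMAD3 held 6 of the 14, SMAD2, SMAD6 and SKI 2 each, and SMAD4 and SMAD7 1 each. At SMAD3 the 6 peaks with the motif had a median signal value of 155.4 and the 15 without had a median of 70.7. Over all 52 peaks the medians were closer, at 69.0 for the 14 with the motif and 62.2 for the 38 without. The motif was found at 28.0% of the peaks above the list median and at 25.9% of the others. These differences were not tested.

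AP-1 factors, dimers of JUN and FOS proteins, often occupy the same enhancers as TEADs. Their motif, TGACTCA or TGAGTCA, was found in 6 of the 52 peaks (11.5%, 5.40 to 23.0%), 3 at SMAD3, 2 at SMAD7 and 1 at SMAD6, against 25.4% of all peaks. Within 50 bp the shares were 7.69% (3.03 to 18.2%) and 17.2%, so that the share of all peaks then lay inside the members' interval. Neither motif was within 100 bp of the summit in 33 of the 52 peaks (63.5%), against 56.1% of all peaks. Median GC content around the summit was 51.2% for the members' peaks and 44.8% for all peaks, and its part in the motif shares was not tested.

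For the other motifs the share of all peaks lay within the members' interval. The RUNX motif TGTGGTT occurred in 8 of the 52 (15.4%, 8.01 to 27.5%) and in 9.53% of all peaks. The SMAD element CAGAC occurred in 20 (38.5%, 26.5 to 52.0%) against 34.6%, and the GC-rich SMAD motif GGCGCC in 2 (3.85%) against 2.64%. The SMAD palindrome GTCTAGAC occurred in 0 of 52, where a limit of 3 counts allows a share of up to 5.77% and the Wilson interval ends at 6.88%, and in 0.128% of all peaks. The TEAD motif read backwards, CCTTACA, served as a control and occurred in 1 (1.92%) against 2.00%. All motifs were searched on both strands, and a match is not evidence of a bound site.

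SMAD6 and SMAD3 are neighbours on chromosome 15, and the 281 kb between them also held TEAD4 peaks. There were 12, with a median signal value of 195.9. The 6 on the SMAD3 side were counted above, and the 6 others were in reach of neither gene and had a median of 205.8 and a maximum of 381.3. Over both genes and the gap there were 33 peaks. On chromosome 18 the 989 kb between SMAD2 and SMAD7 held 13 peaks, or 1.31 per 100 kb, and the 2078 kb between SMAD7 and SMAD4 held 10, or 0.481 per 100 kb, compared with 4.27 per 100 kb between SMAD6 and SMAD3. All 3 gaps thus include peaks counted above, on chromosome 18 the upstream peak of SMAD2 and the 3 upstream peaks of SMAD7. The gaps also differ in length, and their densities were not tested.

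The other genes of the pathway were counted by the same rule. Among TGF-beta family ligands 11 of 15 had a peak (73.3%), led by BMP4 and TGFB2 with 8 each, while BMP2, INHBA, MSTN and TGFB3 had none. Among receptors 6 of 13 had a peak (46.2%), led by TGFBR1 and TGFBR3 with 4 each, while ACVR1B, ACVR1C, ACVR2A, ACVR2B, ACVRL1, BMPR1B and BMPR2 had none. These shares stand on either side of the 56.2% of all coding genes.

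Of the 15 genes that anchor SMADs or control their turnover, 9 had a peak (60%), led by SMURF2, a ubiquitin ligase that targets SMADs and receptors, with 11. RNF111, STRAP, STUB1, TRIM33, WWP1 and ZFYVE9 had none. Of 13 partner factors and coregulators 7 had a peak (53.8%), led by the corepressor TGIF1 with 4, and CREBBP, DACH1, EP300, NCOR1, SNW1 and ZEB1 had none. The shares of both lists were near the 56.2% of all coding genes. No gene of these 4 lists had as many peaks as SMAD3.

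All 12 genes listed as SMAD targets had a peak, against 56.2% of all coding genes, with a median of 4 and the most at COL1A1, which had 8. CCN2 was both in this list and in that of known TEAD targets, so the lists are not separate. All 7 known TEAD target genes had a peak within 2.5 kb of a TSS, against 16.7% of all coding genes. They had a median of 6 peaks, with the most at CCN1, which had 10. Of 8 genes typical of other cell types, only SERPINA1 had a peak, and ALB, APOA1, CYP3A4, HBB, INS, MYH6 and TTR had none. These lists were chosen with earlier results of these data known, so they are no independent check of the ChIP. SMAD3, with 21 peaks, exceeded each of the known TEAD targets in number, but over a longer searched interval (222.9 kb, against 100.7 kb for CCN1). Per 100 kb CCN1 had 9.93 peaks and SMAD3 9.42. The strongest SMAD3 signal value, 604.6, was under the highest values of AXL, AMOTL2 and CCN2, which were 774.2, 765.3 and 617.2.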

How the data were processed

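TEAD4 ChIP-seq of LX-2 cells treated with DMSO comprised 3 ChIP and 2 input samples, assigned from their titles. Reads had been aligned by the authors to hg38 (Chromap) before replicates 1 and 3 went through the ENCODE IDR pipeline. The caller of the TEAD4 peaks is not given in the sources used here. The deposited list has, for each peak, a score that is the authors' scaled IDR (830 to 1000, so an IDR of up to 0.0100), a signal value of the peak caller that is relative and without a known unit, and the authors' −log10 q-value, which ends at 4.76. These meanings were read from the layout of the list.

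Summits were taken from the deposited offset and compared with GENCODE 44 genes and TSSs on hg38 chromosomes 1 to 22, X and Y. Motifs were searched within 100 bp of the summit. The genes and lists were chosen with earlier results of these data known. All members were described, with their strongest peak and the peak nearest to a TSS, and every peak where a gene had 5 or fewer. In each other list the genes with most peaks and those with none were named. RefSeq promoters (GRCh38.p14) were short windows around each RefSeq start. Shares have Wilson 95% intervals, and no p-value was computed. Alternatives changed the distance, the set of peaks and the motif window. Gene assignment and motif search were tested on simulated data. Python 3.11.15, pandas 2.3.3, statsmodels 0.14.6 and pysam 0.24.0 were used.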

Additional observations from a re-analysis of the deposited data

How the results depend on the processing

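No paired analysis was possible because each peak has 1 pooled value, which also meant that no replicate could be dropped. Of 71 recomputed values, 65 stayed within 1.5 times the count, or within the 95% interval of the share or median, as reported, and 6 did not. Above the median signal value of the list, 25 peaks remained at the members, with a median of 1.5 per member and a median signal value of 143.9. With the highest IDR score alone the median signal value was 91.1. Such signal medians rise by construction, since weak peaks are dropped. The shorter motif CATTCC was found in 59.6% of the members' peaks and in 46.8% of all peaks. Without SMAD3, an alternative chosen after seeing the data, 31 peaks remained at the 9 other genes, with a median of 3 per gene. Within 10 kb of a TSS or in the gene body 8 members had a peak (34.0% of coding genes did), and within 100 kb all 10 (72.0%). Within 1 kb of a TSS 5 members had a peak (12.3% of coding genes did), and within 5 kb 7 had one (21.1%). Over all alternatives the numbers of members with a peak ran from 7 to 10, and those with a peak close to a TSS from 5 to 7. The share of coding genes was computed only for the changed distances, so nothing is read from the counts under filtered peaks. The AP-1 motif was found in 7.69% of the members' peaks within 50 bp (3.03 to 18.2%, with 17.2% of all peaks inside the interval) and in 19.2% within 250 bp (10.8 to 31.9%, with 33.2% of all peaks outside it). Of 100 recomputed peak counts of single members, 81 stayed within 1.5 times, and SMAD3 kept between 13 and 22 peaks. The counts ran from 2 to 10 at SMAD7, from 4 to 10 at SMAD6 and from 2 to 7 at SKI. Above the median signal value of the list, SMAD7 kept 2 of its 9 peaks. In the gene body or within 10 kb of a TSS, SKI kept 3 of its 6. Depth is unknown, so a gene without a listed peak may hold TEAD4 binding under the list's threshold.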
